A study of Mus musculus with 2 samples.

Results

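The caspase, BCL2, IAP and inflammasome families hold the genes that carry out and restrain programmed cell death. They were followed here in mouse islets that had been grafted under the kidney capsule 6 hours earlier. The members were chosen by gene symbol, from probe sets that the platform annotation assigns to exactly 1 gene. The symbol rule uses no values, although earlier results of these data were known when it was set. They were the caspases with a number in their symbol, every symbol starting with Bcl2 or Gsdm, Birc, Nlrc and Nlrp genes, and Mcl1, Bax, Bak1, Bid, Bad, Bik, Bbc3, Pmaip1, Apaf1, Xiap, Pycard, Cflar, Ripk1, Ripk2, Ripk3 and Mlkl. This gave 122 of 45037 probe sets, which stood for 61 of 18193 genes. Bax, Ripk1, Ripk2 and Nlrc4 were not analysed here.

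Caspases are cysteine proteases that are made as inactive precursors. Initiator caspases are switched on in death receptor complexes or on the Apaf1 apoptosome, and executioner caspases then cut cellular proteins. BCL2 proteins decide whether the outer mitochondrial membrane is opened, since the pro-survival members hold the pore-forming members and the BH3-only proteins in check. IAP proteins bind caspases or mark signalling proteins with ubiquitin. Inflammasomes are assemblies of an NLR sensor, the adaptor Pycard (also called ASC) and Casp1, which matures interleukin-1 beta and cuts gasdermin D, whose fragments form pores in the plasma membrane. In necroptosis, a form of lytic death that needs no caspase, Ripk3 phosphorylates Mlkl. Early after transplantation, islets are known to be lost by apoptosis and necrosis.

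The study compared 2 graft samples, 1 array each. Donors of all islets were WT C57BL/6 mice, and each recipient received 50 islets under the left kidney capsule. One recipient was a normoglycemic male WT C57BL/6 mouse. The other was a hyperglycemic male mouse heterozygous for Akita, a missense mutation of Ins2 that makes the recipient's own beta cells fail, and neither recipient is described as treated with insulin. The labels give no age for these mice. With 1 array per recipient no difference had a replicate check or a test, and blood glucose and genotype cannot be told apart. How many mice stand behind each sample, and how much kidney tissue was taken with the graft, is not stated.

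The values were MAS5 signal intensities on a linear scale. The median signal was 82.9 on the array of the normoglycemic recipient and 91.5 on that of the hyperglycemic recipient. Genes below the median of the array in both grafts were counted as not measured. The 3' to 5' ratios of control genes serve as a gauge of RNA quality. For Gapdh the ratio was 1.30 with the normoglycemic and 1.76 with the hyperglycemic recipient. For Actb it was larger, at 3.54 and 3.99. Both controls thus had the higher ratio on the array of the hyperglycemic recipient. Both samples gave signals of islet and of kidney cells. All 8 beta cell markers and all 10 proximal tubule markers were measured, with median log2 ratios of hyperglycemic over normoglycemic of 0.09 and -0.08. The beta cell markers were split, 4 higher and 4 lower, with log2 ratios from -0.45 to 1.05. Slc30a8 was over 2-fold higher. Centring each array on its median would move every log2 ratio by -0.14, so that ratios between 0 and 0.14, such as the median of the beta cell markers, would turn negative. In such mixed tissue, fewer cells of a type and less RNA per cell cannot be told apart.

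Of the 61 members, 39 were measured. The hyperglycemic recipient's graft had signals over 2-fold higher for 7 of them and over 2-fold lower for 2. The shares among all 12538 measured genes were 7.56% higher and 5.54% lower by that limit, against 17.9% and 5.13% of the measured members. The 7 genes were Casp1, Casp4, Pycard, Ripk3, Mlkl, Gsdma2 and Gsdmcl-ps, and the 2 genes were Birc5 and Bcl2l12. The median log2 ratio was 0.16 over the measured members and -0.06 over all measured genes. Low signals set most of these counts. Of the 9 genes, only Casp4 and Pycard reached the median on both arrays. Among the 31 members that did so, 2 were higher by over 2-fold and 0 lower, where 3.53% and 1.89% of 10816 genes with both signals at that level were. With signals below the median raised to it, Casp1, Casp4, Pycard and Ripk3 were still over 2-fold higher, and of the 2 lower genes Bcl2l12 was still over 2-fold lower.

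**Figure D1:**
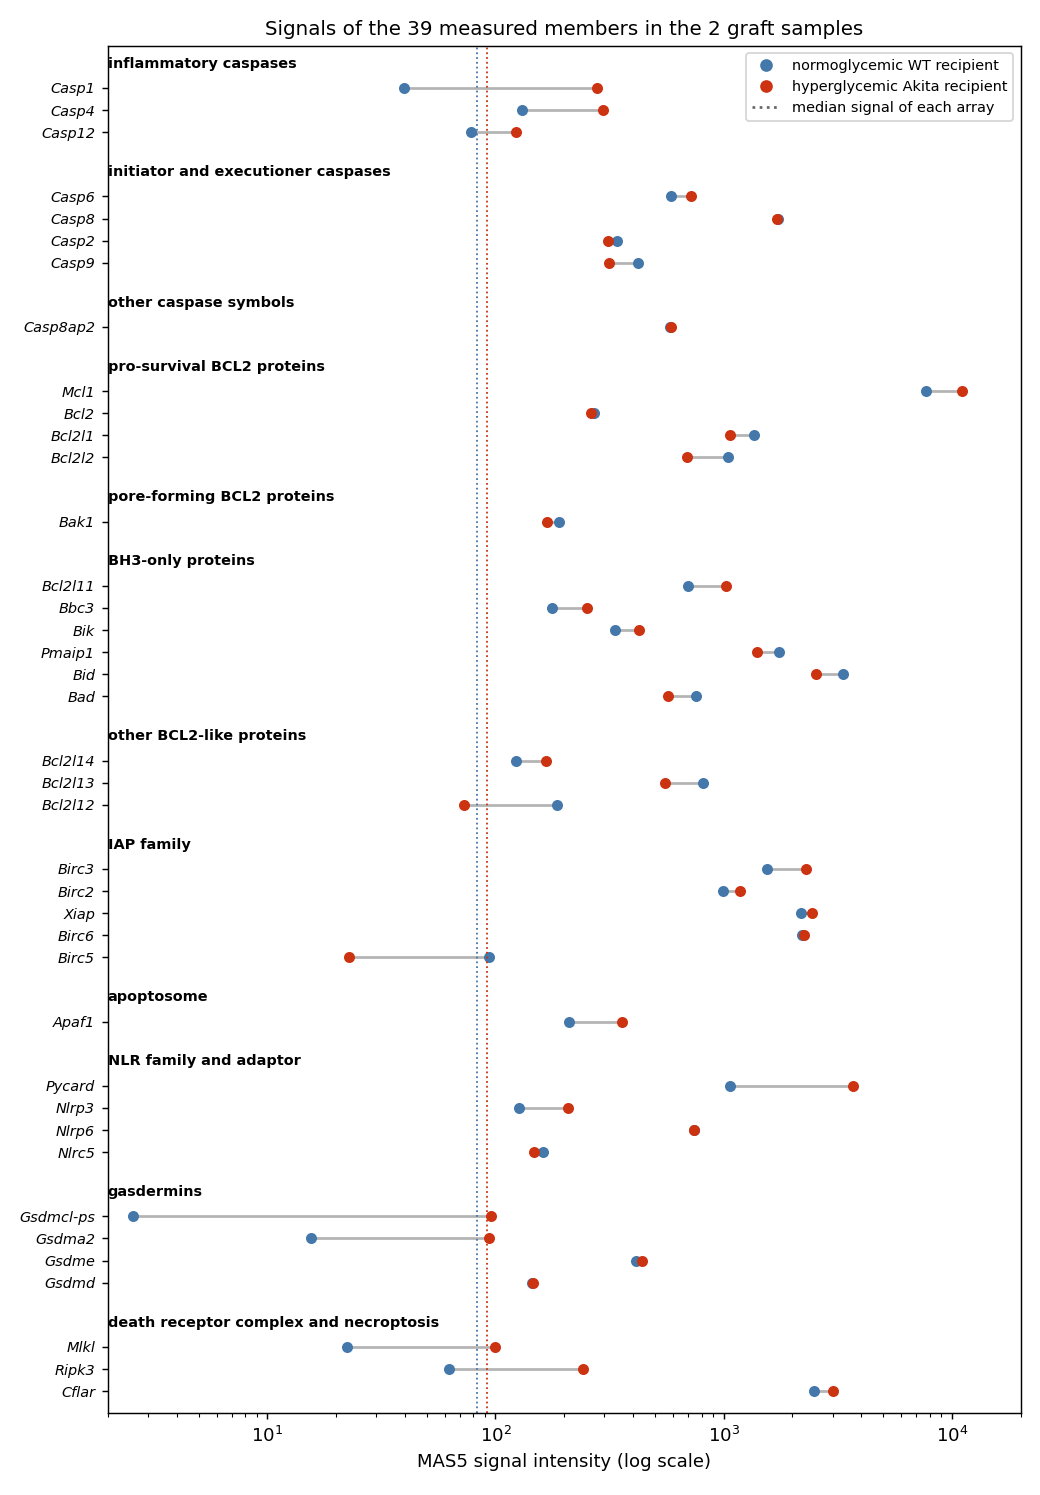
Signal of each measured member (x axis, MAS5 intensity on a log scale) in the graft from the normoglycemic WT recipient (blue) and from the hyperglycemic Akita recipient (red), 1 array each, grouped by family (y axis), with dotted lines at the median of each array. Casp1, Pycard and Ripk3 are joined by long lines that end on the right in red, whereas Casp8, Birc6 and Nlrp6 have nearly the same signal in both.

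All 3 inflammatory caspases had higher signals with the hyperglycemic recipient. Casp1, the protease of the inflammasome, had a signal of 277 against 39.7, where the value of the hyperglycemic recipient is given first here and in what follows. The lower of these was below the median of its array, so that Casp1 was at least 3.35-fold higher with that signal raised to the median. Casp4, known in the mouse as the caspase that senses lipopolysaccharide inside the cell, had a signal of 296 against 130 (2.27-fold). Both of its signals were above the medians, and 2.56% of all genes at that level had a higher ratio. Casp12, a relative with a gene of its own beside them, reached 123 against 77.7 and was at least 1.48-fold higher. In the RefSeq order of protein-coding genes, Casp1, Casp4 and Casp12 follow one another on the same chromosome, and all 3 were higher. The second probe set of Casp12 was below both medians, at 7.70 against 65.2.

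The adaptor Pycard had the largest signal ratio among members above both medians. Its brightest probe set had a signal of 3690 against 1063.5 (3.47-fold), and 1.16% of all genes above both medians had a higher ratio. Its other 2 probe sets were below the medians, at 43.7 against 33.4 and at 33.1 against 13.8. Pycard was also the only member still over 2-fold higher with floors at the 75th percentile, which were chosen after the values had been seen.

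Ripk3 and Mlkl, the kinase and the pore-former of necroptosis, were measured on the array of the hyperglycemic recipient only. The signal of Ripk3 was 241 against 62.8 and thus at least 2.91-fold higher. Mlkl had a signal of 99.8 against 22.2, which is at least 1.20-fold, since its higher signal lay just above the median. Cflar, the inhibitor of Casp8 in death receptor complexes, had a signal of 3029 against 2486 on its brightest probe set (1.22-fold). Its 4 probe sets above both medians had log2 ratios from -0.35 to 0.29. For Cflar the probe sets therefore disagreed in direction, whereas Ripk3 and Mlkl had 1 probe set each.

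The 250 bases before the start of the genes that stood out and stayed over 2-fold higher with the floor are shown here, from RefSeq on GRCm38.p6, 5' to 3' on the strand of the gene. Of the 2 starts listed for Casp4 the first is shown. Capitals mark matches on either strand to GGGNNNNNCC, the NF-kB pattern, and to GAGGAA, the core bound by PU.1, a factor of myeloid cells.

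Casp1 (chr9:5298267-5298516, plus strand): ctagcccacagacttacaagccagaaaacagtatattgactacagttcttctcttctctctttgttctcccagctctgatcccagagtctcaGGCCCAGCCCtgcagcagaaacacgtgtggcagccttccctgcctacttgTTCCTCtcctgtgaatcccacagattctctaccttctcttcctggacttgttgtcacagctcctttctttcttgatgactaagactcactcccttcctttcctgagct
Casp4 (chr9:5308599-5308848, plus strand): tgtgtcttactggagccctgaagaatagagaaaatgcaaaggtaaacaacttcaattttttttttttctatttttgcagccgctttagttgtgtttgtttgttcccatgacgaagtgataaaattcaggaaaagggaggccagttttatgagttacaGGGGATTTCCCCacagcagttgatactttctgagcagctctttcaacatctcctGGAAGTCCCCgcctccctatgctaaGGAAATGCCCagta
Pycard (chr7:127993868-127994117, minus strand): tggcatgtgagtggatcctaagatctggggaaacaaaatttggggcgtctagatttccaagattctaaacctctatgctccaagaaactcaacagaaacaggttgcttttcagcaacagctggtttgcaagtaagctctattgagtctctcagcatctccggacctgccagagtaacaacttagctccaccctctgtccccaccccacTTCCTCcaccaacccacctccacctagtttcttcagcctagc
Ripk3 (chr14:55788858-55789107, minus strand): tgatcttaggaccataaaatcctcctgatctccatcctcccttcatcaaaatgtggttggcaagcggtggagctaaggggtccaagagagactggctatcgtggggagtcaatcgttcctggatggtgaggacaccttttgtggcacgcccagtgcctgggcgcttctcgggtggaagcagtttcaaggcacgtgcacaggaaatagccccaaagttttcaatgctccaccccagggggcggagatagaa

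The Casp4 window held 5 matches to the NF-kB pattern, of which 3 overlapped in 1 stretch from 93 to 82 bases before the start, and the Casp1 window held 1, on the reverse strand. The PU.1 core was in the windows of Casp1 and Pycard, on the reverse strand in both, and Ripk3 had no match to either pattern. These patterns are common. The NF-kB pattern was in 45.8% of 32851 windows of this length and the PU.1 core in 23.3%. Per gene, 48.7% and 25.9% of all genes held them in at least 1 window, against 23 (69.7%) and 12 (36.4%) of the 33 measured members with a window. The 27025 genes with windows include genes that were not measured here, so these shares are not like for like. Of the 5 higher members with a window, 2 held the NF-kB pattern and 2 the PU.1 core. The members with a match included many that differed by less than 2-fold, such as Bid, Bad and Xiap for the PU.1 core. The interferon response pattern GAAANNGAAA was in none of the 33 members (3.46% of all genes with windows). Nlrp6 alone held the AP-1 pattern TGANTCA (7.82% of all genes), and Casp12 alone the STAT pattern TTCNNNGAA (8.13%). These matches describe letters in a window and do not show that a factor was bound.

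The 3 measured Nlrp and Nlrc genes were within 2-fold, unlike the adaptor. Nlrp3, the sensor of membrane damage and crystals, had a signal of 208 against 127 (1.64-fold). Nlrp6, an NLR of epithelia, had 744 against 738, and Nlrc5, which drives MHC class I genes, had 148 against 162. The other 14 NLR members on the array were below the median in both grafts, with signals from 1.11 to 75.2. They were Nlrc3, Nlrp10, Nlrp12, Nlrp14, Nlrp4a, Nlrp4b, Nlrp4c, Nlrp4e, Nlrp4f, Nlrp5, Nlrp5-ps, Nlrp9a, Nlrp9b and Nlrp9c, several of which are known from oocytes. No fold is given for them.

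Gasdermins, which form the pores of pyroptosis, included no gene that was above both medians and differed by more than 2-fold. Gsdmd, the substrate of Casp1 and Casp4, had a signal of 146 against 145. Gsdme, another gasdermin, had 437 against 413 on its brighter probe set and 302 against 248 on the other. Gsdma2 and the pseudogene Gsdmcl-ps were over 2-fold higher by their deposited signals, at 93.8 against 15.6 and at 95.1 against 2.57. Both higher signals were just above the median, so these were at least 1.13-fold and 1.15-fold higher. The 4 other probe sets of Gsdma2 were below both medians and disagreed, from 4.36 against 80.3 to 33.7 against 3.65. Gsdma, Gsdmc2, Gsdmcl1 and Gsdmcl2 were below the median in both grafts on the probe sets that the annotation gives to 1 gene.

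The initiator and executioner caspases differed little. Casp8, the initiator at death receptors, had a signal of 1718 against 1737. Casp9, the initiator on the apoptosome, had 314 against 421, and Casp2, an initiator linked to DNA damage and cell division, had 312 against 342. Casp6, an executioner, had 719 against 590 (1.22-fold). Casp8ap2, which is named for binding Casp8 and is no caspase, had 591 against 583 and turned lower with median centring. All 5 genes were within 2-fold, 3 of them with lower and 2 with higher signals. Casp14, a caspase of the skin, was below the median in both grafts. Apaf1, the scaffold of the apoptosome, had a signal of 358 against 209 (1.71-fold), and this was the next ratio below that of Casp4 among members above both medians.

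Of the BCL2 family members, which were read from probe sets of 1 gene only, none with both signals above the medians differed by more than 2-fold on its brightest probe set. Of the pro-survival genes, Mcl1 had a signal of 11090 against 7672 on its brightest probe set (1.45-fold), and all 6 of its probe sets were above both medians with log2 ratios from 0.09 to 0.59. Bcl2l1 had 1066 against 1362 (1.28-fold lower), Bcl2l2 had 692 against 1046 (1.51-fold lower) and Bcl2 had 263 against 270. For Bcl2l1 the brightest probe set was lower and the others above both medians were higher, with log2 ratios from -0.35 to 0.43. Bcl2l10 was below the median in both grafts.

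Bak1, a pore-former, had a signal of 168 against 190, whereas its second probe set, below both medians, had 90.4 against 43.7. Of the BH3-only genes, which start the mitochondrial pathway, Bcl2l11 (BIM) had 1021 against 699 (1.46-fold) and Bbc3 (PUMA) 253 against 177 (1.43-fold). Bid, which is cut by Casp8, had 2552 against 3346 on its brightest probe set (1.31-fold lower). The 3 probe sets of Bid above both medians had log2 ratios from -0.98 to 0.003. Bad had 569 against 755 (1.33-fold lower) and Pmaip1 (NOXA) 1401 against 1756 (1.25-fold lower). Bik had 426 against 334 on its brightest probe set, but its 3 probe sets above both medians had log2 ratios from -1.16 to 0.35, the widest range among the 12 members with several such probe sets. The 6 BH3-only genes among the members had a median log2 ratio of 0.01, which turned negative, to -0.13, with each array centred on its median. Bmf and Hrk, BH3-only genes that the symbol rule leaves out, were lower, at 144 against 175 and at 91.4 against 144. Hrk reached the median on the array of the normoglycemic recipient only.

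Of the other BCL2-like genes, Bcl2l13, a protein of the mitochondrial membrane, had a signal of 552 against 814 (1.47-fold lower), and Bcl2l14 had 167 against 123. Bcl2l12 had 72.7 against 186, which was at least 2.04-fold lower. Its second probe set was below both medians, at 5.01 against 19.9. Bcl2l15 was below the median in both grafts.

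**Figure D2:**
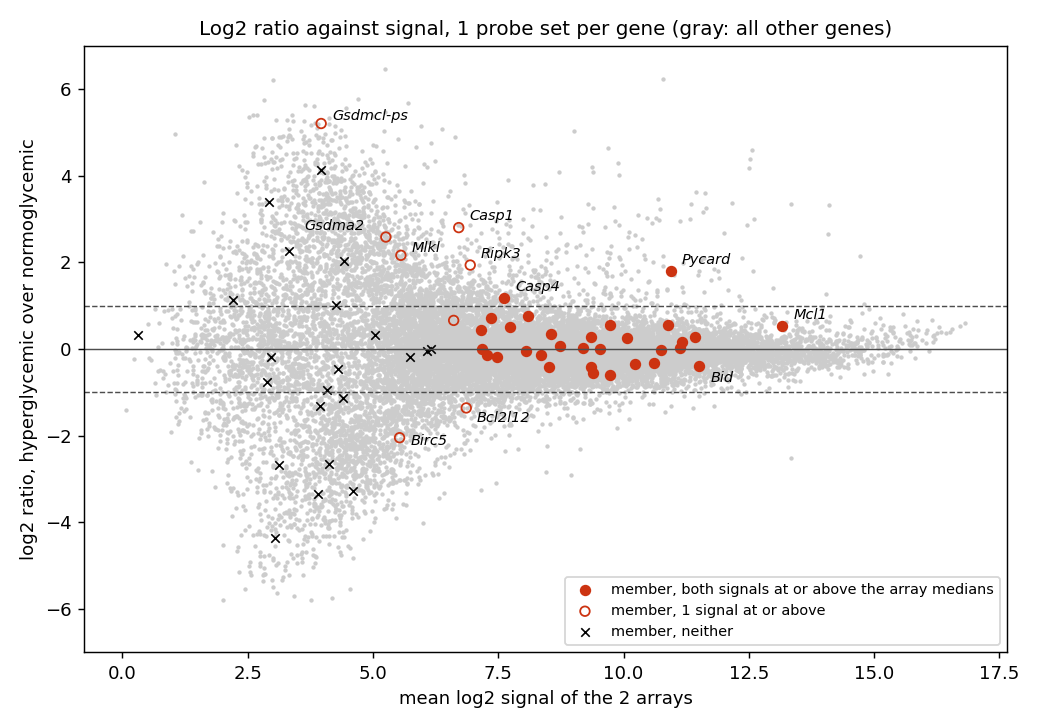
Log2 ratio of hyperglycemic over normoglycemic signal (y axis) against the mean log2 signal of both arrays (x axis), for the probe set with the highest mean signal of each gene. Members are red circles, filled where both signals reach the medians and open where 1 does, or black crosses with neither, other genes are gray and dashed lines mark 2-fold. Ratios spread widely at low signals, where Gsdmcl-ps, Gsdma2, Mlkl and Birc5 lie, whereas Pycard lies apart from most genes of its signal.

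Of the IAP genes, Birc3 (cIAP2), which is known as a target of NF-kB, had a signal of 2296 against 1557 on its brighter probe set (1.48-fold). Its other probe set had 117 against 49.3, of which only the first was above its median. Its neighbour Birc2 (cIAP1) had 1179 against 991 (1.19-fold). Xiap, the direct inhibitor of caspases, had 2444 against 2188 on its brightest probe set. The 3 probe sets of Xiap above both medians disagreed in direction, with log2 ratios from -0.50 to 0.16. Birc6, a large ubiquitin ligase, had 2240 against 2213. Birc5 (survivin), a protein of dividing cells, had 22.8 against 94.1. Its higher signal was close to the median of its array, so that Birc5 was at least 1.03-fold lower, and it had 1 probe set. Birc7 was below the median in both grafts.

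Probe sets of a gene gave a measure of the scatter within the arrays, which is not a replicate error. Of 12 members with several probe sets above both medians, 11 had log2 ratios within a range of at most 1, and the median range was 0.48. The log2 ratios of Apaf1 (0.77) and Nlrp3 (0.71) exceeded that median and lay within the range of 1. Among the 55 member probe sets above both medians, 2 were higher by over 2-fold and 1 lower, where the shares over all 17811 such probe sets of 1 gene were 3.35% and 1.88%. Among the 21 above 1 median only, 10 were over 2-fold higher and 5 lower, where 33.0% and 27.1% of all 3818 such probe sets were.

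**Figure D3:**
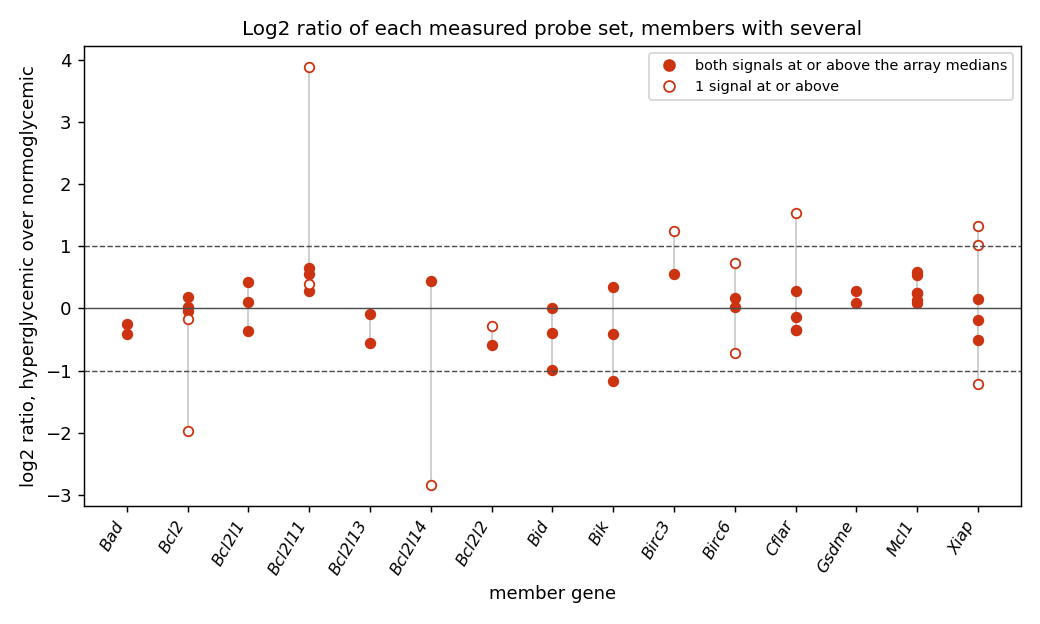
Log2 ratio (y axis) of every measured probe set of the members with more than 1 of them (x axis), filled where both signals reach the array medians and open where 1 does. The 6 probe sets of Mcl1 lie between 0.09 and 0.59, whereas 1 open probe set each of Bcl2l11, Bcl2l14 and Bcl2 lies far from the others of its gene.

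The wider pathway was read from 4 lists, which were chosen with earlier results of these data known. For comparison, the median log2 ratio over all measured genes was -0.06. Of those genes, 43.8% had a higher ratio than the nearly unchanged Nlrp6 (log2 ratio 0.01). Of 13 genes of mitochondrial release and execution, all 13 were measured and within 2-fold, and 12 were lower, with a median log2 ratio of -0.30. Cycs, cytochrome c, which is released from mitochondria to bind Apaf1, had a signal of 92632 against 57710 (1.61-fold) and was the exception. Parp1, a DNA repair enzyme cut by caspases, had 462 against 901 (1.95-fold lower). Bnip3, a mitochondrial protein induced by hypoxia, had 15224 against 17578, and Aifm1 had 5210 against 5669.

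Of 9 genes of p53 and stress inputs, all 9 were above both medians and higher, and 2 were over 2-fold higher. Their median log2 ratio was 0.54, against -0.06 over all measured genes. Ddit3 (0.11) and Trib3 (0.14) turned lower with median centring. Cdkn1a, a cell cycle inhibitor and target of p53, had a signal of 2559 against 1030 (2.49-fold), and Phlda3, also a target of p53, had 367 against 129 (2.85-fold). Gadd45a, a gene of DNA damage, had 2928 against 1792 (1.63-fold) and Foxo3, a transcription factor, 1650 against 1048. Bbc3 and Pmaip1, members that p53 also induces, were at 1.43-fold higher and 1.25-fold lower.

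Of 12 death receptor and adaptor genes, 10 were measured, and 1 was higher by over 2-fold and 0 lower (median log2 ratio -0.13). The 1 gene was Traf1, at 94.4 against 38.7, at least 1.14-fold. Tnfrsf21 had 6720 against 7088 and Tnfrsf1a, the main receptor of tumor necrosis factor, 2259 against 2314. Dedd, a protein with a death effector domain, had 452 against 597 (1.32-fold lower). Fas had 405 against 349, and its adaptor Fadd 390 against 484. Tnfrsf1b, a TNF receptor of leukocytes, had 477 against 265, and Traf2 had 286 against 476 (1.66-fold lower).

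Of 19 sensors, inputs and products of inflammasomes, 16 were measured, 3 over 2-fold higher and 1 over 2-fold lower, with a median log2 ratio of 0.21. Naip2, a sensor of bacterial proteins, reached 445 against 74.97, at least 5.36-fold higher. Naip6, a near relative of it, had 203 against 69.9, at least 2.45-fold, and probe sets of such related genes can share target RNA. Il1rn, the antagonist of the interleukin-1 receptor, had 507 against 204 (2.49-fold). Of the interleukins that Casp1 matures, Il1b had 1080 against 568 (1.90-fold) and Il18 had 435 against 428. Zbp1, an upstream activator of Ripk3, had 20.4 against 90.7, at least 1.01-fold lower. Nek7, a partner of Nlrp3, had 4326 against 5474, Txnip, a glucose-responsive gene, 5194 against 4489 (1.16-fold), and Bcl10, a scaffold of NF-kB signalling, 3377 against 3983.

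Casp1, Casp4, Pycard, Ripk3, Naip2 and Mlkl are genes that leukocytes express, and leukocyte markers differed between the grafts as well. All 16 macrophage and monocyte markers were measured, and 15 were over 2-fold higher, with log2 ratios from 0.05 to 4.03 and a median of 2.47. Their summed signal was 105800 against 14980. The exception was Spi1, which encodes PU.1, at 146 against 142. Itgam and Mrc1 were below the median in the graft from the normoglycemic recipient. Of 10 neutrophil markers, 6 were measured and 4 over 2-fold higher (summed signal 17310 against 4497). These were S100a8, S100a9 and Csf3r, above both medians, and Ltf, at 92.8 against 5.21 and thus at least 1.12-fold. Mpo had 118 against 140 and Mmp9 144 against 120, and Cxcr2, Ngp, Camp and Elane were below both medians. Of 7 B cell markers, 4 were measured, 3 over 2-fold higher and 1 over 2-fold lower (summed signal 1058 against 298). Of 8 T and NK cell markers, 1 was measured, at 146 against 123, and Cd3e, Cd3d, Cd3g and Cd4 were below the median in both grafts. Against the macrophage marker median of 2.47, the log2 ratios of Casp1 (2.81) and Naip2 (2.57) were higher by their deposited signals. Those of Mlkl (2.17), Ripk3 (1.94), Pycard (1.79) and Casp4 (1.18) were lower. Of these genes, only Pycard and Casp4 reached the median on both arrays. With the lower signal raised to the median, Casp1 was at least 3.35-fold and Naip2 at least 5.36-fold higher. Both folds are below the macrophage marker median of 5.55-fold, so the order of these 2 genes and the markers depends on the floor. The part of the leukocytes in these ratios was not tested.

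**Figure D4:**
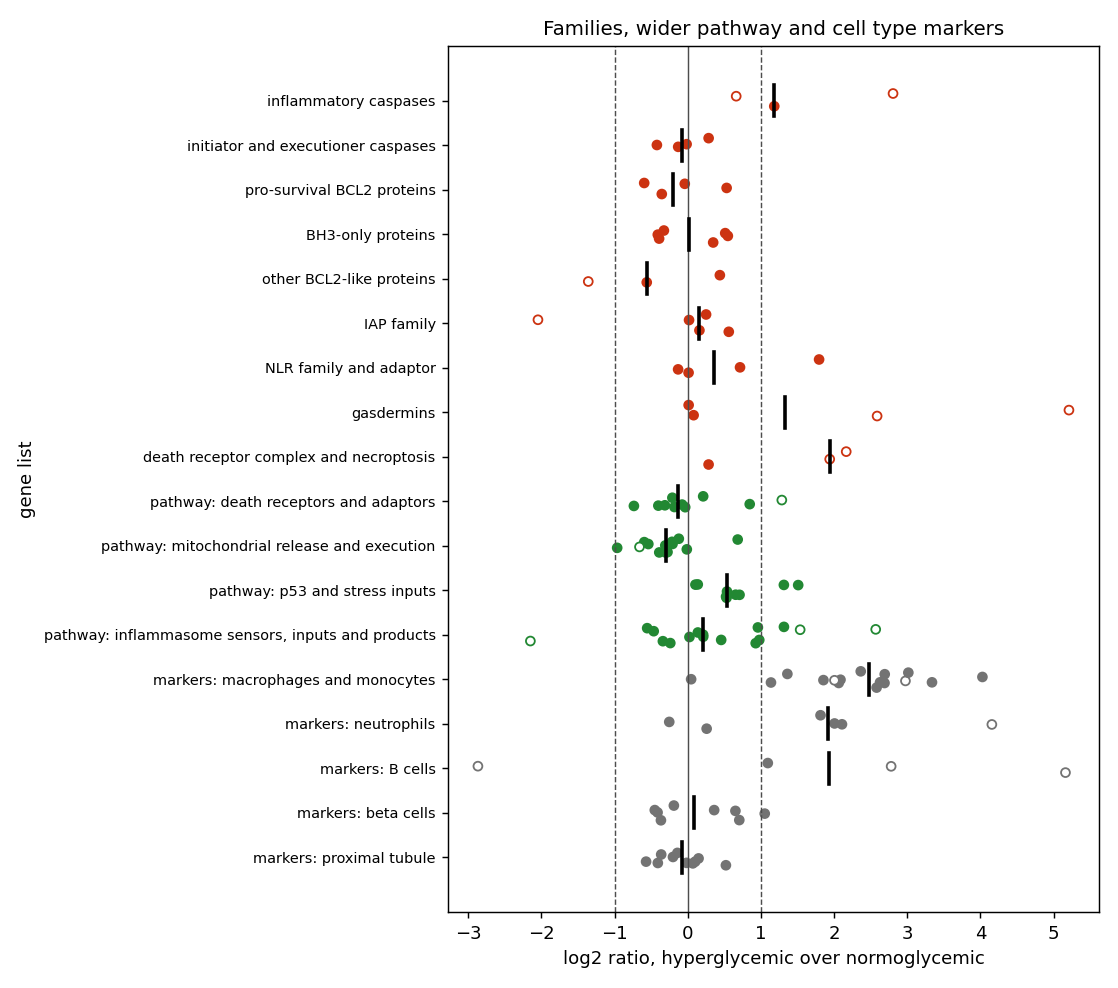
Log2 ratio of hyperglycemic over normoglycemic (x axis) of each measured gene in the member families (red), the 4 pathway lists (green) and the marker lists (gray) on the y axis, filled where both signals reach the array medians, with black bars at list medians and dashed lines at 2-fold. Families with 1 measured gene and the T and NK cell list are left out. The BCL2 groups, apart from Bcl2l12, and the initiator and executioner caspases lie within 2-fold, the inflammatory caspases (median 1.18) and the macrophage markers (2.47) to the right.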

How the data were processed

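Total RNA of 1 islet graft sample per recipient was hybridized to 1 MOE430 2.0 array each. The authors deposited signal intensity values made with MAS5 on a linear scale, per the labels, for 45101 probe sets, 64 of them controls; its version and settings were not stated. The columns were matched through the labels. Among the non-control probe sets, those with exactly 1 gene symbol numbered 34945, those with several 932 and those without any 9160. All 61 members were found in RefSeq (GRCm38.p6) by gene identifier and symbol. The files name no genome build. Each gene was read from its brightest probe set by mean log2 signal, and signals were compared unscaled. "At least" folds have signals below the array median raised to it. There are no detection calls, so the median is a floor chosen here, and 1 array per group limits the precision. Members and lists were chosen with earlier results of these data known, and 4 symbols were added to their families afterwards. Members were named by family: those over 2-fold or with a signal at or above the 75th percentile, further members by range or signal, and of each pathway list the genes over 2-fold and the 3 of highest signal. Fas, Fadd, Tnfrsf1b, Traf2, Parp1, Bmf, Hrk, Ddit3, Trib3, Il1b and Il18 lie outside this rule and were chosen after their values were seen. Alternatives were 3 scalings (median centring, quantile normalization, loess with span 0.3 and 3 iterations), floors, an added median, other filters and other probe set choices. The counting was tested on simulated data. Python 3.11.15, numpy 2.4.6, pandas 2.3.3, statsmodels 0.14.6 and matplotlib 3.10.9 were used.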

Additional observations from a re-analysis of the deposited data

Results flagged for a closer look

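The 7 probe sets that the annotation assigns to several genes of these families lie outside the comparisons above. One of them, assigned to 3 closely related genes of the Bcl2a1 group, was brighter in the graft from the hyperglycemic recipient, where its signal was 822 against 148 (5.56-fold). Which of these genes gave the signal cannot be told apart. The Bcl2a1 genes encode pro-survival BCL2 proteins known from leukocytes, whose markers were also higher in that graft. Their part in this signal was not tested. The other 2 probe sets of the Bcl2a1 group were below both medians, at 40.7 against 10.0 and at 46.0 against 33.0. One assigned to Gsdmc2 and Gsdmc4 went the other way, at 14.8 against 108, of which only the second was above its median. The remaining 3, of gasdermin genes, were below both medians.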

How the results depend on the processing

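Median centring, quantile normalization and loess correction each left 7 members over 2-fold higher and 2 lower, and these were the same 9 genes. Median centring took the median log2 ratio of all measured genes from -0.06 to -0.20 and that of the measured members from 0.16 to 0.018, so that the members were 0.22 above all genes in both. It also took the counts over all genes from 948 higher and 695 lower to 812 and 951. The filter and the floor mattered more. The counts higher and lower were 2 and 0 with both signals required at the medians, 13 and 9 with no filter (medians of 0.019 and 0.018), 4 and 1 with floors at the medians, 4 and 0 with the array median added, and 1 and 0, with a median of 0, with floors at the 75th percentile, which was added after the values had been seen. With no filter, all the further genes had both signals below the medians. Where the probe sets of a gene were combined by their median, 4 members were lower, Bcl2l14 and Casp12 in addition, and the members' median was 0.013. Without probe sets that can bind several transcripts it was 0.050, with 8 higher, Birc3 in addition, and 3 lower, which were Bcl2l12, Bcl2l14 and Bik. None of the 9 genes turned its direction in the 82 alternative values that could be had. This outcome was nearly fixed, since the genes were chosen for ratios over 2-fold and median centring moved log2 ratios by only -0.14. Values of 0 counted as not turned, and Casp1, Casp4, Ripk3, Mlkl, Birc5 and Gsdmcl-ps had 1 probe set each. Of the 12 family medians, those of the BH3-only genes and of Casp8ap2 alone changed sign under a scaling. With other settings, that of Bak1 alone went from -0.18 to 0.43 with the probe sets combined by their median, that of the NLR family and adaptor from 0.36 to -0.06 with no filter, that of Casp8ap2 from 0.02 to -0.46 with no filter, where Casp14 joins it, and that of the BH3-only genes from 0.01 to -0.33 with combined probe sets, -0.29 without those of several transcripts and -0.16 with floors at the 75th percentile. With floors at the 75th percentile, 8 of the 9 genes had a log2 ratio of 0. The number of arrays, 1 per recipient, and signals near the median limit all of these values.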

Other observations

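Some probe sets of a member differed from the others of their gene, and these differences were chosen after the values had been seen. A probe set of Bcl2l11 had a signal of 123 against 8.32, whereas the 4 other probe sets of the gene had log2 ratios from 0.28 to 0.66. A probe set of Bcl2l14 had 12.3 against 87.5, and one of Bcl2 had 28.1 against 109, whereas the brightest of each gene had 167 against 123 and 263 against 270. One of Cflar had 128 against 44.2 and of the probe sets of Xiap, one had 36.5 against 84.3, one 122.7 against 60.5 and one 98.9 against 39.5. In each of these cases 1 signal was below the median of its array.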
